A study of Mus musculus with 6 samples.

Results

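The genes of 10 secreted ligands were followed in neonatal mouse heart cells with and without a hairpin RNA against one of them, in a series on GDF11 loss, heart failure and vessel growth. They were Gdf11, the targeted gene, with Mstn, Gdf15, Gdf6, Bmp2, Bmp4, Bmp5, Bmp6, Bmp7 and Bmp10. These 10 genes, taken by name from a deposited table of 54532 genes, each matched 1 row. Ventricular cardiomyocytes were prepared from C57BL/6J mice aged 1 day, transfected at a multiplicity of infection of 200, and taken for RNA after 48 h. In the shGDF11 group (3 libraries) the hairpin was directed against Gdf11, and in the control group (3 libraries) the cells received the construct that the labels call sh-nc and the protocol sh-Vector. The labels number the libraries 1 to 3 in each group without saying whether a number stands for a culture, an animal or a hairpin. The p-values therefore measure the spread between these libraries, which may be technical. The sources used here give neither the hairpin sequence nor how many animals were pooled.

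GDF and BMP ligands belong to the TGF-beta superfamily. They are made as precursors, cut by proprotein convertases, and secreted as dimers that join type I and type II receptors on the cell surface. GDF11 and myostatin (Mstn) act through activin type II receptors and the type I receptors ALK4 and ALK5 on SMAD2 and SMAD3. The BMPs and GDF6 act mainly through SMAD1, SMAD5 and SMAD8, and BMP10 binds ALK1 (Acvrl1) with high affinity. GDF15 is the exception, a distant member that signals through GFRAL and RET in the hindbrain and is induced by cell stress. In the heart, BMP2 and BMP4 take part in early cardiac specification and valve formation, and BMP10 is needed for growth of the embryonic trabeculae.

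Mstn is the closest relative of Gdf11. Over the last 327 coding bases, which hold the mature ligand, the GENCODE M21 transcripts of the pair were 74.9% identical. The longest run shared by the whole transcripts was 12 bases, and they had no 21-base word in common. Gdf11 shared no 21-base word with any of the other 9 genes either. Bmp5, Bmp6 and Bmp7, which form a subgroup, did share such words (8 between Bmp6 and Bmp7, 5 between Bmp5 and Bmp6, and 3 between Bmp5 and Bmp7), as did Bmp4 and Bmp7 outside their coding bases (3).

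The 250 bases before the transcription start are shown for Gdf11, Mstn and Bmp10, the targeted gene, its relative and the BMP gene with the lowest level relative to control. They come from RefSeq on GRCm38.p6, whose table held 7 of the 10 genes. The Gdf11 window is chr10:128891719-128891968 on the minus strand, the Mstn window chr1:53061390-53061639 on the plus strand, and the Bmp10 window chr6:87428744-87428993 on the plus strand. Capitals mark TATAAA and CCAAT.
Gdf11: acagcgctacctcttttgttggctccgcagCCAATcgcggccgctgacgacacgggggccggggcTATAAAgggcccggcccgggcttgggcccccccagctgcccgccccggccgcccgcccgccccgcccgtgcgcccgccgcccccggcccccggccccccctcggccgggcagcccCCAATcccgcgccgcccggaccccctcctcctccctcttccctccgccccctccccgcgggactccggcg
Mstn: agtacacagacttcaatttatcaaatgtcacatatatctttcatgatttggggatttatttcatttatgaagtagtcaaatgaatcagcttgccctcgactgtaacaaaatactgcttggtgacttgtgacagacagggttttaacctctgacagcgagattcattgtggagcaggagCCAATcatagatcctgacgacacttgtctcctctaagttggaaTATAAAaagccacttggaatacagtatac
Bmp10: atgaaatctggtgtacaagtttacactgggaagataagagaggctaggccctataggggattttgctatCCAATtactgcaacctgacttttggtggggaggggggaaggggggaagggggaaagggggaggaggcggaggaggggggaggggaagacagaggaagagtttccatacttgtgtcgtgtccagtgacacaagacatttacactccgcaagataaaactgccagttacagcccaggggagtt
Both strands were searched over 300 bases, from 250 before the start to 50 after it. Positions count from the transcription start. The TATA motif began at position -185 in Gdf11 and at -29 in Mstn, and 13.6% of all 32851 promoters of that length held it. The CCAAT motif began at positions -220 and -70 in Gdf11, at -72 in Mstn and at -181 in Bmp10. It also stood at -6 on the opposite strand at 1 of 2 start sites of Gdf15, and 37.4% of promoters held it. The core of the hypoxia response element, ACGTG, was found in the windows of Bmp4, Bmp6 and Gdf15 and in 19.6% of promoters. The BMP SMAD motif GGCGCC occurred in 11.9% of promoters and had no match in the windows of these 7 genes. The palindromic SMAD element GTCTAGAC occurred in 0.213% and had no match there either. The element bound by ATF4 with C/EBP, TGATGNAA, matched in Bmp5 and in 3.97% of promoters. A match describes the letters and is not a measured site. The Gdf11 window was 80.7% G and C, against a median of 52.7% over all promoters and 41.3% in Mstn.

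The table gives FPKM, reads scaled to gene length and library size, so that levels of different genes can be set side by side. The reads behind the values could be recovered, with 15267083 to 16152910 in listed genes of each library. A count of 3 reads, used as the detection floor, is 0.18 to 0.191 FPKM for a gene of 1 kb. Among the controls, control library 1 stood further from the other controls than they did from each other (chi-square per degree of freedom of 13.6 and 18.3, against 5.45). It held the highest control value for 5 of the 10 ligand genes and the lowest for the other 5. Reads in ribosomal RNA genes made up 0.470% to 0.502% in shGDF11 libraries and 0.298% to 0.319% in control libraries. Of 10 cardiomyocyte markers none was at 0, and 2 were higher and 4 lower, summing to 4882 to 5206 FPKM in shGDF11 and 5010 to 5752 FPKM in control. Markers of other cells were read too. Of those tested, 6 of 9 endothelial, 3 of 7 mural and 2 of 7 macrophage markers were lower, 3 of 9 fibroblast and 3 of 7 atrial markers higher, and 2 of 6 epicardial markers higher and 1 lower. Of 7 neural markers 2 were tested, and 1 of them, S100b, was higher (5.67 ± 0.487 FPKM in shGDF11 and 2.51 ± 0.413 FPKM in control, SD, n = 3 each). Over all genes tested, 13.1% were lower and 14.4% higher by the same limma test, and 27.6% were called in either direction. The shares of called fibroblast (33.3%) and macrophage markers (28.6%) were near 27.6%, but the fibroblast calls were all higher and the macrophage calls all lower. The atrial markers were read although the cells are labelled ventricular. In such bulk samples, fewer cells of a type and less RNA per cell cannot be told apart.

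Gdf15 was the most abundant of the 10 ligand transcripts in both groups, and Gdf11 had rank 8 in shGDF11 and rank 7 in control. In shGDF11 the order of mean levels was Gdf15 (20.9 FPKM), Bmp7 (6.69), Bmp4 (4.87), Gdf6 (4.78), Bmp6 (4.50), Bmp2 (3.85), Bmp10 (0.823), Gdf11 (0.665), Bmp5 (0.664) and Mstn (0.257). In control it was Gdf15 (25.3 FPKM), Gdf6 (8.93), Bmp6 (6.04), Bmp4 (5.31), Bmp7 (4.70), Bmp2 (3.47), Gdf11 (2.46), Bmp10 (1.78), Bmp5 (0.310) and Mstn (0.143). Neighbours whose library values overlapped in shGDF11 were Bmp4 with Gdf6, Gdf6 with Bmp6, Bmp10 with Gdf11, and Gdf11 with Bmp5. In control, Bmp6 overlapped with Bmp4, Bmp4 with Bmp7, and Bmp5 with Mstn. By mean level, Bmp7 thus stood below Bmp4 and Bmp6 in control and above both, in second place, in shGDF11. Gdf6 was second in control and lay between Bmp4 and Bmp6 in shGDF11, overlapping both.

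**Figure D1:**
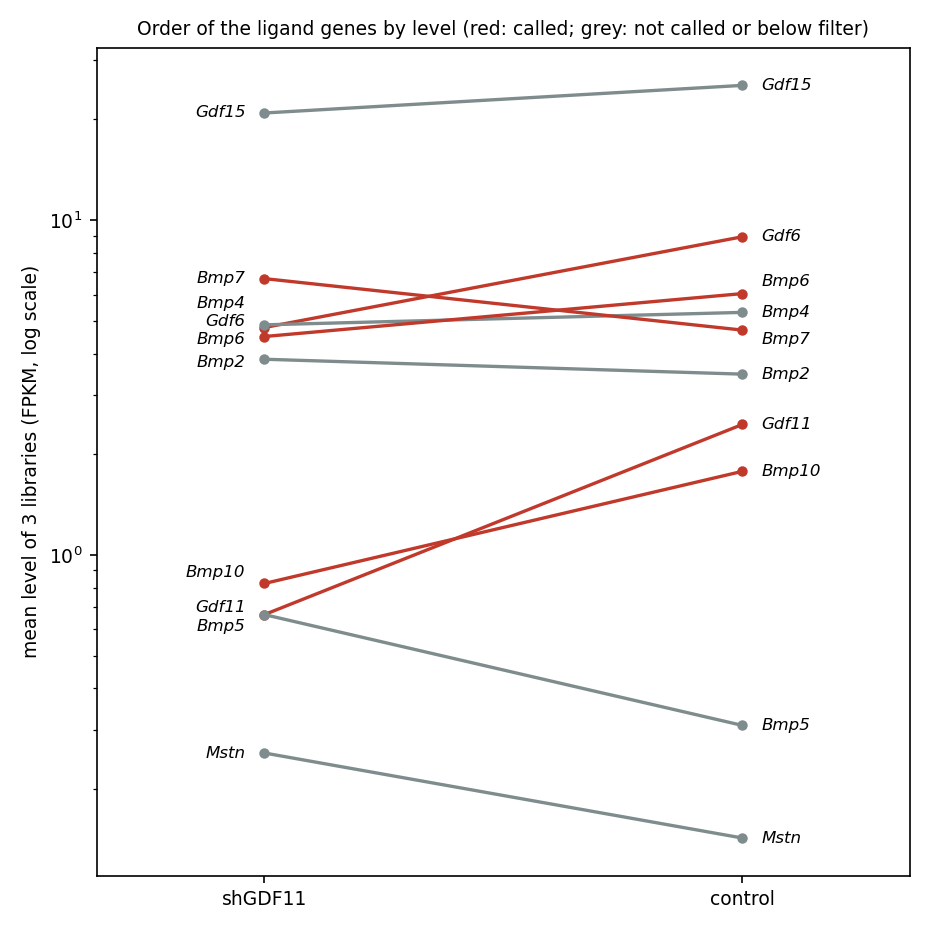
Mean level of each ligand gene (FPKM, log axis) in 3 shGDF11 libraries on the left and 3 control libraries on the right, with a line joining the means of 1 gene; red lines are genes called by limma. Bmp7 stood second in shGDF11 (6.69 FPKM) and Gdf6 second in control (8.93 FPKM), and Gdf11 met Bmp5 in shGDF11 (0.665 and 0.664 FPKM).

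Of the 10 ligand genes, 8 passed the filter of a mean of at least 0.5 FPKM and were tested. Gdf11, Gdf6, Bmp10 and Bmp6 were lower with the Gdf11 hairpin, Bmp7 was higher, and Gdf15, Bmp2 and Bmp4 were not called. A call was a limma adjusted p under 0.05 on log2(FPKM + 0.5), adjusted over all genes tested, and fold changes are shGDF11 minus control on that scale. The added constant makes the changes of low genes look smaller than they are. The 5 calls among 8 are to be read beside 27.6% called over 15418 genes, with 13.1% lower and 14.4% higher. For 6 of the 8, every library of one group lay above every library of the other, as for 45.8% of all genes tested. Both counts include Gdf11, the hairpin's own target, and the ligand genes were chosen with earlier results of these data known. Exact two-sided permutation tests gave p = 0.1, the smallest possible with 3 against 3, for 7 of the 10 genes, which are the 5 called with Bmp4 and Bmp5. The same exact permutation test gave p = 0.4 for Gdf15 and p = 0.3 for Mstn and Bmp2. With control library 1 left out, Gdf11 (log2 fold change -1.27), Bmp10 (-0.89), Gdf6 (-0.78), Bmp6 (-0.27) and Bmp7 (0.43) were called again.

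**Figure D2:**
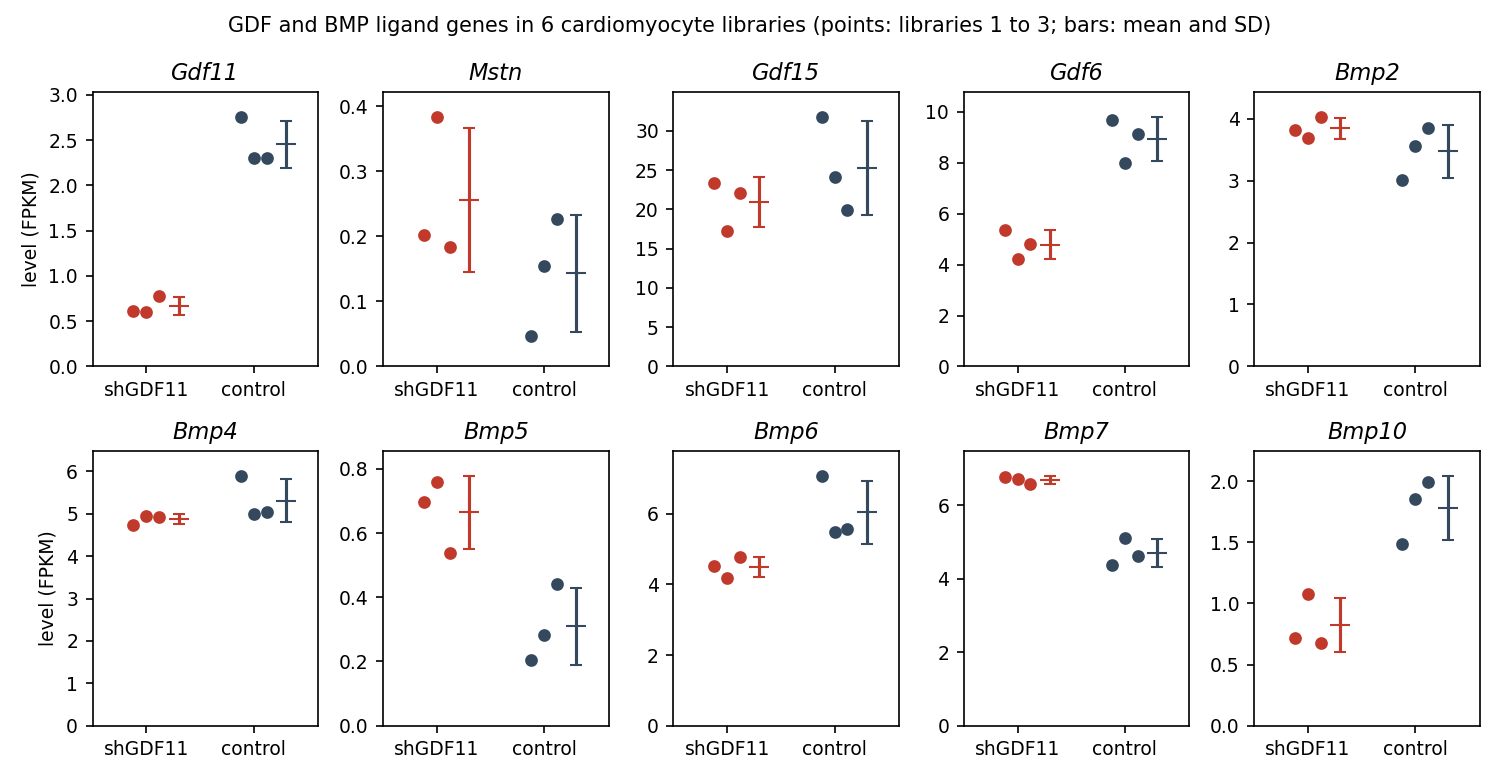
Level of each of the 10 ligand genes (FPKM, linear axis from 0) in the 3 shGDF11 libraries (red, left) and the 3 control libraries (blue-grey, right), with the mean and SD beside the points. Gdf11, Gdf6, Bmp6, Bmp10 and, by a narrow gap, Bmp4 lay lower in every shGDF11 library than in any control library, and Bmp7 and Bmp5 lay higher.

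Gdf11 (ENSMUSG00000025352, chr10:128882295-128891718, minus strand) was the lowest relative to control. Its level was 0.614, 0.601 and 0.778 FPKM in shGDF11 and 2.76, 2.30 and 2.31 FPKM in control. These values rested on 41, 40 and 51 reads in shGDF11 and 176, 156 and 153 reads in control. Every shGDF11 library was thus far below every control library, and the mean stood at 27.1% of control. On the log2 scale the difference was -1.34 ± 0.125 (SE; 95% interval -1.64 to -1.05; limma adjusted p = 0.00079). Only 75 of the genes tested (0.486%) had a lower log2 fold change. By reads alone the depth-scaled ratio was 0.270 (exact interval 0.221 to 0.328, counting error only, as for all such ratios here). None of its exon bases overlap an exon of another annotated gene, and the genes on either side, Sarnp (log2 fold change 0.24, limma adjusted p = 0.23) and Cd63 (-0.01, limma adjusted p = 0.89), were not called.

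Mstn (chr1:53061640-53068079, plus strand), the negative regulator of muscle mass, was close to the detection floor. It had 9, 17 and 8 reads in shGDF11 and 2, 7 and 10 reads in control, which is 0.202, 0.384 and 0.183 FPKM in shGDF11 and 0.0471, 0.155 and 0.227 FPKM in control. The groups overlapped, and the gene lay below the filter. The depth-scaled ratio of its summed reads was 1.78 with an interval of 0.986 to 3.30, which lies wholly above the ratio of 0.270 found for Gdf11 and reaches just below 1. With no filter the log2 fold change was 0.23 and the limma adjusted p 0.47.

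Gdf6 (chr4:9844372-9862345, plus strand), a ligand known for its part in joint, skull and eye development, was lower in shGDF11. It stood at 5.34, 4.22 and 4.79 FPKM in shGDF11 and 9.69, 7.98 and 9.11 FPKM in control. The groups were well apart, with the highest shGDF11 value below the lowest control value and a mean of 53.6% of control. This gave a log2 fold change of -0.84 ± 0.107 (SE; limma adjusted p = 0.0021), and it was called under all 16 alternatives tried (limma adjusted p of 1.8e-05 to 0.0124). The reads, 244 to 310 per shGDF11 library and 470 to 538 per control library, gave a ratio of 0.536 (0.492 to 0.584).

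Bmp10 (chr6:87428994-87437677, plus strand), a ligand made by heart muscle cells, was lower as well. Its level was 0.718, 1.07 and 0.676 FPKM in shGDF11 and 1.49, 1.86 and 1.99 FPKM in control. Library 2 was the highest of the shGDF11 group and still below the lowest control. The mean was 46.3% of control, a log2 fold change of -0.79 ± 0.163 (SE; limma adjusted p = 0.0129). It was called under all 15 alternatives that gave a value, with a limma adjusted p of up to 0.0479 when 1 library was left out. The Bmp10 reads numbered 53, 79 and 49 in shGDF11 and 105, 139 and 146 in control, a ratio of 0.461 (0.384 to 0.551). Bmp10 is made mainly in the atria after birth, and of 7 atrial markers 3 were higher (Stard10, Myl4 and Myl7) and 0 lower, their sum being 2204 to 2438 FPKM in shGDF11 and 2024 to 2946 FPKM in control. Most of this sum was Nppa, at 1833 ± 120 FPKM in shGDF11 and 2022 ± 463 FPKM in control (SD, n = 3 each). Nppa was not called (limma adjusted p = 0.61). None of the 7 atrial markers was at 0, and their part in the fall of Bmp10 was not tested.

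Bmp6 (chr13:38345107-38500302, plus strand), known as the BMP that drives hepcidin expression in the liver, was lower by a smaller amount. It stood at 4.53, 4.20 and 4.77 FPKM in shGDF11 and 7.07, 5.49 and 5.56 FPKM in control. Control library 1 lay above the other 2 controls, and all 3 shGDF11 values lay below the controls. The difference on the log2 scale was -0.38 ± 0.109 (SE; 95% interval -0.64 to -0.12; limma adjusted p = 0.0392). Without control library 1 the log2 fold change was -0.27 and the limma adjusted p 0.0466. The call was lost in 8 of 16 alternatives, among them leaving out shGDF11 library 1, 2 or 3 (limma adjusted p of 0.0983, 0.130 and 0.0761) or control library 2 (0.0539) and rescaling to TPM (0.0524). Of its exon bases, 5.74% lie opposite Txndc5. Bmp6 is also expressed by endothelial cells, and 6 of 9 endothelial markers were lower, summing to 45.2 to 48.9 FPKM in shGDF11 and 67.1 to 70.1 FPKM in control. None of these markers was at 0, and their part in the Bmp6 difference was not tested.

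Bmp7 (chr2:172868012-172940321, minus strand), a ligand needed for kidney and eye development, was the 1 tested member that was higher. Its level was 6.78, 6.72 and 6.59 FPKM in shGDF11 and 4.37, 5.10 and 4.62 FPKM in control. The 3 shGDF11 values lay close together and above all controls. The mean stood at 142% of control, a log2 fold change of 0.47 ± 0.0752 (SE; limma adjusted p = 0.0049). The call held under all 16 alternatives (limma adjusted p of 0.0019 to 0.0274). With 427 to 448 reads per shGDF11 library and 276 to 342 per control library, the ratio of reads was 1.42 (1.31 to 1.55).

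Bmp5 (chr9:75775364-75900310, plus strand), a close relative of Bmp6 and Bmp7, was low in both groups and had a mean over the 6 libraries of 0.487 FPKM, just under the filter. It was read at 0.695, 0.759 and 0.539 FPKM in shGDF11 and 0.206, 0.283 and 0.442 FPKM in control. The groups did not overlap, with 46, 50 and 35 reads in shGDF11 and 13, 19 and 29 in control, and the ratio was 2.13 (1.56 to 2.94). With no filter the log2 fold change was 0.53 and the limma adjusted p 0.12. With limma voom on the reads of all genes, an alternative added after the data were seen, the log2 fold change was 1.12 and the limma adjusted p 0.031. Of the exon bases of Bmp5, 46.7% lie opposite the antisense gene Gm26903, which is listed at 0 in every library. As the strand setting is not given, this 0 does not show whether reads over the shared bases were counted for Bmp5.

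Gdf15 (chr8:70629393-70632456, minus strand) was at 23.3, 17.3 and 22.1 FPKM in shGDF11 and 31.8, 24.1 and 19.96 FPKM in control. The groups overlapped, and the highest value was that of control library 1. The log2 fold change was -0.25 with a 95% interval of -0.68 to 0.17 (limma adjusted p = 0.34), and without control library 1 it was -0.08. It had 525 to 710 reads per shGDF11 library and 603 to 925 per control library, and by counting error alone the ratio was 0.829 (0.779 to 0.881), narrower than the spread between libraries. Gdf15 made up 43.4% ± 3.47 of the summed FPKM of the 10 genes in shGDF11 and 42.9% ± 5.19 in control (SD, n = 3 each).

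Bmp2 and Bmp4, the closely related pair, were not called. Bmp2 (chr2:133552159-133562885, plus strand) had 3.82, 3.69 and 4.03 FPKM in shGDF11 and 3.01, 3.56 and 3.85 FPKM in control, and the groups overlapped. Its log2 fold change was 0.14 with a 95% interval of -0.10 to 0.37 (limma adjusted p = 0.35), and without control library 1 it was 0.05. Bmp4 (chr14:46383520-46390669, minus strand) had 4.74, 4.94 and 4.94 FPKM in shGDF11 and 5.89, 4.99 and 5.04 FPKM in control. The Bmp4 values of the groups did not overlap, but the gap between them was narrow and control library 1 stood alone. The log2 fold change of Bmp4 was -0.11 with a 95% interval of -0.30 to 0.09 (limma adjusted p = 0.36), and without control library 1 it was -0.04. Of the exon bases of Bmp4, 3.96% lie opposite Gm15217.

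In FPKM, the summed level of the 6 BMP genes was nearly the same in the groups. It was 21.3, 21.4 and 21.5 FPKM in shGDF11 and 22.03, 21.3 and 21.5 FPKM in control. The lower Bmp6 and Bmp10 and the higher Bmp7 and Bmp5 entered this sum with opposite signs. FPKM summed over all genes was 304770 to 309981 in shGDF11 libraries and 315542 to 351657 in control libraries. Taken as a share of that total, the BMP sum was higher in every shGDF11 library than in any control library. That division shifts all genes the same way. After rescaling to TPM, the median log2 fold change over all genes tested was 0.08, against 0.01 before it. Over the 9 genes other than Gdf15 the sum was 27.1 ± 0.454 FPKM in shGDF11 and 33.1 ± 1.40 FPKM in control (SD, n = 3 each), and the mean of Gdf6 differed the most. These sums over chosen genes were not tested.

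**Figure D3:**
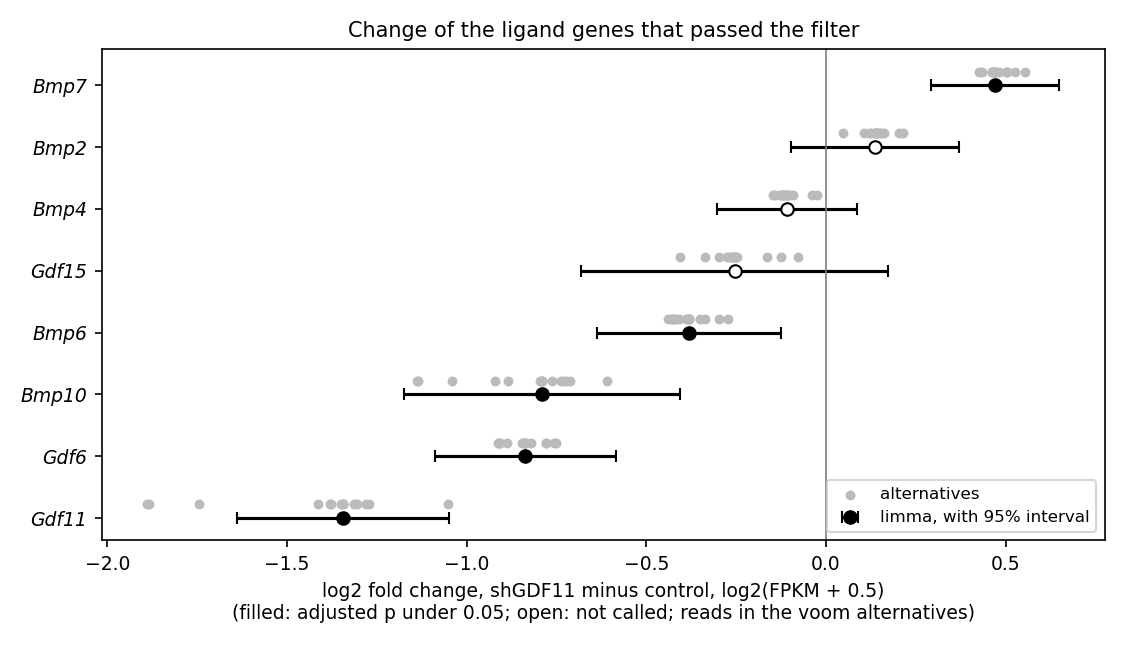
Log2 fold change (shGDF11 minus control) of the 8 ligand genes that passed the filter, with limma's 95% interval in black (filled where called, open where not) and each alternative as a grey point. All 8 genes stayed on their side of 0 with every alternative that gave a value, and the interval of Gdf15 (-0.68 to 0.17) was the widest of those that cross 0.

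Other genes of the pathway were taken from lists by role, chosen with earlier results of these data known. Of 11 further GDF and BMP ligand genes, Gdf10 alone passed the filter, and it was not called (0.687 ± 0.0790 FPKM in shGDF11 and 0.597 ± 0.0714 FPKM in control, SD, n = 3 each, as for the levels that follow). Among 6 tested proteases that cut ligand precursors, 1 was higher and 1 lower, a share near the 27.6% called over all genes. Pcsk5, the convertase that cleaves pro-GDF11, was at 3.25 ± 0.286 FPKM in shGDF11 and 1.15 ± 0.0465 FPKM in control (log2 fold change 1.18, limma adjusted p = 0.00056). Pcsk6 was at 6.91 ± 0.826 FPKM in shGDF11 and 9.33 ± 0.495 FPKM in control (limma adjusted p = 0.0184). The Pcsk6 call was lost without shGDF11 library 1 or 2 (limma adjusted p of 0.0649 and 0.0729), without control library 2 (0.0583) and with a replicate block (0.0526). Furin, the general convertase, was at 23.0 ± 1.93 FPKM in shGDF11 and 29.9 ± 4.32 FPKM in control and just missed the threshold (limma adjusted p = 0.051).

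Secreted antagonists fell in 3 of 14 tested cases and rose in 0, beside 13.1% of all genes lower. Their median log2 fold change was -0.16, and that of all genes tested 0.01. Fstl3, which binds activins, GDF11 and myostatin, stood at 0.826 ± 0.189 FPKM in shGDF11 and 2.62 ± 0.103 FPKM in control (limma adjusted p = 0.0012). Grem1, the BMP antagonist gremlin, stood at 0.670 ± 0.0576 FPKM in shGDF11 and 1.55 ± 0.0396 FPKM in control (limma adjusted p = 0.0034). Bmper, an extracellular modulator of BMPs, stood at 4.42 ± 0.157 FPKM in shGDF11 and 6.14 ± 0.357 FPKM in control (limma adjusted p = 0.0061). Wfikkn2, an antagonist with high affinity for GDF11 and myostatin, was at 1.15 ± 0.245 FPKM in shGDF11 and 1.70 ± 0.323 FPKM in control and did not pass (limma adjusted p = 0.11).

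Of 15 receptor and co-receptor genes tested, 3 were lower and 0 higher, not far from the 13.1% lower over all genes, and the list's median log2 difference was -0.12. With limma voom on the reads, 1 receptor gene, the co-receptor gene Rgmb, was called higher. Acvrl1, the type I receptor ALK1 that binds BMP10, was at 4.21 ± 0.704 FPKM in shGDF11 and 6.90 ± 0.751 FPKM in control (limma adjusted p = 0.0108). Eng, the ALK1 co-receptor endoglin, was at 26.5 ± 0.703 FPKM in shGDF11 and 34.3 ± 1.07 FPKM in control (limma adjusted p = 0.0038). Both are endothelial genes, and the endothelial markers were lower too, as given with Bmp6; their part in these falls was not tested. Bmpr1a, the type I receptor ALK3, was at 31.5 ± 0.896 FPKM in shGDF11 and 41.6 ± 4.88 FPKM in control (limma adjusted p = 0.0196). The Bmpr1a call was lost in 5 of 6 omissions of a library (limma adjusted p of 0.0595, 0.0606 and 0.0725 without shGDF11 library 1, 2 or 3, and 0.0594 and 0.0503 without control library 2 or 3) and after rescaling to TPM (0.115). The receptors of GDF11 itself were not called: Acvr1b was at 10.4 ± 0.335 FPKM in shGDF11 and 11.4 ± 0.626 FPKM in control, and Acvr2a at 7.16 ± 0.391 FPKM in shGDF11 and 7.83 ± 1.23 FPKM in control (limma adjusted p = 0.21 and 0.52). Tgfbr1, which encodes ALK5, and Acvr2b were not called either (limma adjusted p = 0.36 and 0.47). Gfral, the GDF15 receptor, had 0 or 1 read per shGDF11 library and 0 in control.

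Of 10 SMAD and SMURF genes, 2 fell and 0 rose, close to the shares over all genes (13.1% lower and 14.4% higher). They were Smad7, the inhibitory SMAD (5.19 ± 0.733 FPKM in shGDF11 and 9.65 ± 2.34 FPKM in control, limma adjusted p = 0.0145), and the ubiquitin ligase gene Smurf1 (9.63 ± 0.502 FPKM in shGDF11 and 11.6 ± 0.532 FPKM in control, limma adjusted p = 0.0306). Without shGDF11 library 2 the limma adjusted p of Smad7 was 0.0557. Smurf1 was not called without shGDF11 library 1, 2 or 3 or control library 1 or 2 (limma adjusted p of 0.0606, 0.116, 0.0811, 0.0515 and 0.0632), with no filter (0.0512), after rescaling to TPM (0.125) or with a replicate block (0.0594). Without shGDF11 library 2 the list thus held 0 falls. Among 18 BMP target genes, 4 rose and 4 fell, beside 14.4% higher and 13.1% lower over all genes. Id2 was at 22.8 ± 0.361 FPKM in shGDF11 and 10.98 ± 1.49 FPKM in control, and Hey2 at 5.27 ± 0.390 FPKM in shGDF11 and 2.56 ± 0.380 FPKM in control (limma adjusted p = 0.00089 and 0.0018), while Grem1, Bmper and Smad7, which are in this list too, fell. The other fall was Id1, at 12.8 ± 0.610 FPKM in shGDF11 and 17.7 ± 1.4996 FPKM in control (limma adjusted p = 0.0073). The other rises were Tbx20 and Hamp, and that of Hamp rested on 4 to 9 reads per shGDF11 library and 1 to 3 per control library. At a mean of 0.946 FPKM in shGDF11 and 0.250 FPKM in control, Hamp passed the filter only through the group where it was higher. Without shGDF11 library 1 the rises were 2.

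Genes of the stress response that induces Gdf15 changed in both directions while Gdf15 itself was not called. Of 16 tested, 7 rose and 4 fell, beside 14.4% higher and 13.1% lower over all genes, and the median difference of the list was 0.37 on the log2 scale. Ddit3 (CHOP) was at 28.7 ± 0.758 FPKM in shGDF11 and 13.1 ± 1.06 FPKM in control (limma adjusted p = 0.00028). Asns, asparagine synthetase, was at 44.1 ± 2.31 FPKM in shGDF11 and 24.4 ± 2.15 FPKM in control (limma adjusted p = 0.00087), and Mthfd2, a mitochondrial folate enzyme, at 34.8 ± 1.33 FPKM in shGDF11 and 18.7 ± 1.02 FPKM in control (limma adjusted p = 0.00036). Atf3 was at 5.42 ± 1.02 FPKM in shGDF11 and 12.4 ± 0.685 FPKM in control (limma adjusted p = 0.0012). Atf4 was at 55.3 ± 1.85 FPKM in shGDF11 and 55.0 ± 12.8 FPKM in control and did not pass (limma adjusted p = 0.90). The falls were 2 without shGDF11 library 1 or 3 or control library 3 and 1 without shGDF11 library 2, and 2 with no filter, after rescaling to TPM or with a replicate block.

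**Figure D4:**
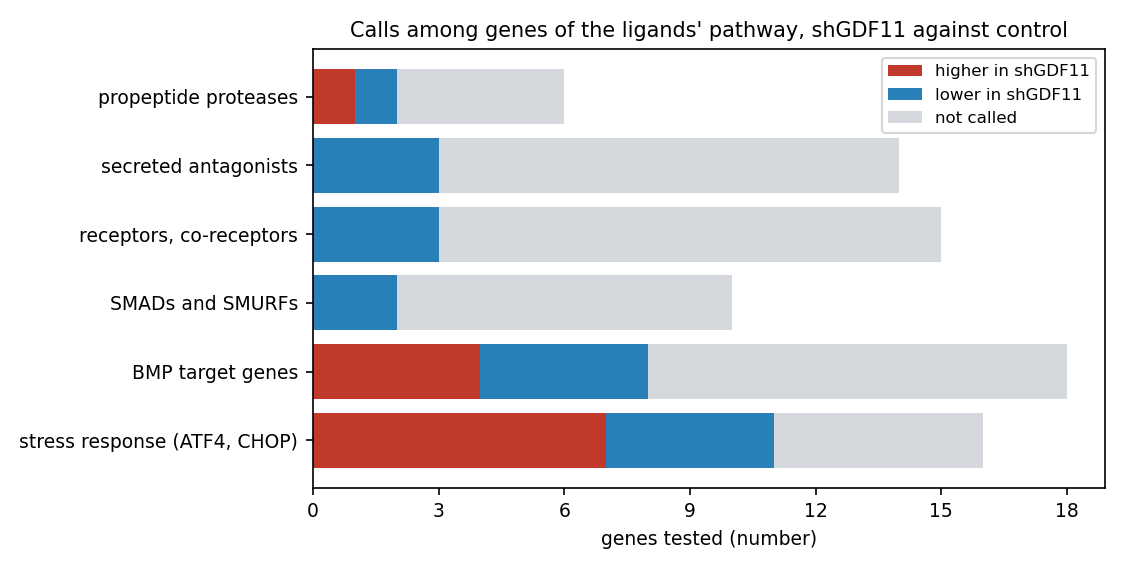
Number of genes tested in each list of the ligands' pathway (horizontal axis), divided into those called higher in shGDF11 (red), called lower (blue) and not called (grey). The antagonist, receptor and SMAD lists held 3 of 14, 3 of 15 and 2 of 10 genes called lower, beside 13.1% over all genes, and the BMP target list held 4 of each. With limma voom 1 receptor gene was higher, and without shGDF11 library 2 the SMAD list held 0 falls.

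The genes whose profile over the 6 libraries was most like that of Gdf11 included Phlda2, Apln, Acta2 and Sik1. Likeness was the root mean square difference between log2(FPKM + 0.5) profiles, each centred on its own mean, and it was 0.0178 for Phlda2, 0.0799 for Apln, 0.0965 for Acta2 and 0.0971 for Sik1. Phlda2, an imprinted growth-restricting gene of placenta, was at 0.547 ± 0.101 FPKM in shGDF11 and 2.13 ± 0.224 FPKM in control, nearly the levels of Gdf11 itself. Apln encodes the peptide apelin, Acta2 smooth muscle actin and Sik1 a salt-inducible kinase, and their log2 fold changes were -1.36, -1.42 and -1.26. Their levels were higher, at 6.15, 370 and 6.01 FPKM in shGDF11 and 16.7, 993 and 15.2 FPKM in control. The added constant of 0.5 therefore shrinks the change of Gdf11 more than theirs. With 0.1 in its place the log2 fold change of Gdf11 was -1.74, a larger fall than theirs with either constant. The likeness of Apln, Acta2 and Sik1 to Gdf11 thus depends on the constant. Phlda2, Apln, Acta2 and Sik1 all lie on other chromosomes than Gdf11.

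The genes beside the ligand genes were examined as well. Of the 20 nearest tested protein-coding neighbours, 1 on each side of each ligand gene, 6 were called (27.6% of all genes tested were), or 3 without any 1 shGDF11 library. Both neighbours of Gdf15 changed in opposite directions, with Pgpep1 at 13.9 ± 0.479 FPKM in shGDF11 and 6.93 ± 0.391 FPKM in control, and Ssbp4 at 5.50 ± 0.148 FPKM in shGDF11 and 10.98 ± 3.87 FPKM in control (limma adjusted p = 0.00034 and 0.0204). These neighbours were named after their values were seen. The Ssbp4 call was lost without shGDF11 library 1, 2 or 3 (limma adjusted p of 0.0643, 0.0655 and 0.0613) and with no filter (0.0552). Neither neighbour of Bmp10, of Bmp5 or of Mstn was called.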

How the data were processed

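RNA of 3 shGDF11 and 3 control libraries was compared, grouped by the treatment label. The authors deposited FPKM values per gene with gene lengths. HISAT2 2.0.5, CASAVA 1.8 and featureCounts 1.5.0-p3, with GRCm38 and mm10 as builds, stand in the submitters' processing notes without a role or order. Annotation release and strand setting are not given there. The gene length and coordinates of all 10 ligand genes equal those of GENCODE M21 on GRCm38.

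FPKM times length was a whole multiple of 1 step in each library (100% of positive values within 0.05 of a whole read), which gave the reads. The 15418 genes whose mean over the 6 libraries reached 0.5 FPKM entered limma 3.58.1 as log2(FPKM + 0.5) (eBayes with a variance trend, two-sided; R 4.3.3), with Benjamini-Hochberg adjustment over them all. Intervals at 95% on reads are exact and cover counting error only. TMM factors for limma voom on the reads were computed from their published formula. The limma step was checked on simulated data. Named were the 10 ligand genes, called genes of each list (all where 5 or fewer, otherwise the 4 with the smallest p), the 5 genes most like Gdf11, of which 1 is not reported here, and its neighbours. Furin, Wfikkn2, Gdf10, Acvr1b, Acvr2a, Acvr2b, Tgfbr1, Gfral, Atf4, Id1, Tbx20, Hamp, S100b, Rgmb, Pgpep1 and Ssbp4 were named beyond that rule. So were the atrial markers Stard10, Myl4, Myl7 and Nppa. The ligand genes and lists were chosen with earlier results of these data known. Alternatives were the pseudocount, filter, scaling, variance model, voom, a block by replicate number and leaving out each library.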

Additional observations from a re-analysis of the deposited data

How the results depend on the processing

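Gdf11, Gdf6, Bmp10 and Bmp7 kept their direction and call under every alternative that gave a value, and Gdf15, Bmp2 and Bmp4 were called under none. No alternative turned a called value round. Bmp6 stayed lower but lost its call in 8 of 16 alternatives. Its log2 fold change was -0.38 with no filter (limma adjusted p = 0.0894), with the replicate block (0.0564) and when no variance trend was fitted (0.0527), -0.30 after rescaling to TPM (0.0524), and -0.44 to -0.27 on leaving out 1 library (0.0466 to 0.130). With no filter more genes share both the adjustment and the variance fit. The cause of the lost call was not tested for any of these alternatives. At a mean of at least 5 FPKM, Gdf11, Bmp2 and Bmp10 were not tested, 3 ligand genes were called with 2 of them lower, and 1474 genes in all were higher, against 2227. With voom on reads of all genes, added after the data were seen, 2 ligand genes were higher, since Bmp5 joined Bmp7 (log2 fold change 1.12). After rescaling to TPM, 1324 genes were lower, against 2026, and 66.3% of the calls were higher, against 52.4%. On leaving out 1 library, 2328 to 4233 genes were called in all, 1256 to 2241 higher and 1072 to 1992 lower; the pathway genes lower numbered 7 to 14 against 14 and the called neighbours 3 to 7 against 6. Same-numbered libraries of the groups did not deviate together (correlations of 0.0153, 0.0149 and -0.0521), and with the number as a block 3223 genes were called, against 4253. With voom on the recovered reads 5082 genes were called. Over the other named genes, 602 values under alternatives stayed on their side of the threshold, 35 lost the call and 6 gained one; some values that were called in neither case changed sign, such as that of Cd63 (0.08 after rescaling to TPM). Depth limits Mstn, Bmp5 and the other genes of few reads.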
